A study of Homo sapiens with 6 samples.

Results

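The 10 circadian clock genes PER1, PER2, PER3, CRY1, CRY2, ARNTL, CLOCK, NR1D1, NR1D2 and DBP were examined in DBTRG cells, an established human glioblastoma line with the genotype WT in the labels. The study grew them for 5 days either as a 2D culture on a rigid dish or as a 3D culture in soft gel. The labels name no further agent, and each condition had 3 RNA sequencing libraries. The members are core components of the clock, listed by symbol under a rule that uses no measured value. Of the 58884 genes in the deposited table, 9 members were found by symbol. PER1 was found by its identifier, ENSG00000179094, because its row carries the symbol AC129492.1. All 10 passed the filter on low counts, among 16098 genes tested. The labels name neither the gel material nor its stiffness. They also give no hour of harvest and no synchronisation of the cells, and do not say whether the libraries came from separate cultures. The p-values therefore measure only how far these libraries spread, and that spread may be technical.

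The mammalian clock is a feedback loop of transcription that runs in most cell types. The proteins ARNTL (also called BMAL1) and CLOCK bind E-box DNA as a pair and activate the PER and CRY genes, whose proteins return to the nucleus and repress that pair. The same activators drive NR1D1 and NR1D2, the nuclear receptors REV-ERB alpha and beta, which repress ARNTL through RORE sites, and DBP, an activator that acts through D-box sites and is a common readout of the loop's output. The mRNA levels of most of these genes rise and fall over the day in a synchronised culture. In a bulk sample at a single time, a shift of phase, a different mean level and a change in how well the cells are synchronised cannot be told apart. Nor can fewer cells expressing a gene be told apart from less RNA per cell.

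In soft gel ARNTL and NR1D1 were higher and PER2 was lower, while the other 7 members did not pass the test. ARNTL was 1.46-fold higher, NR1D1 was 1.48-fold higher and PER2 was 1.42-fold lower than on the rigid dish. The 3 calls were made with edgeR's quasi-likelihood test at a Benjamini-Hochberg adjusted p below 0.05 over all genes tested. They amount to 3 of 10 members, against 28.6% of all genes called in either direction. By direction, 2 members were higher, against 15.4% of all genes, and 1 was lower, against 13.2%. At an unadjusted p below 0.05 there were 4 members, against 43.0% of all genes, and in 4 members the groups did not overlap in CPM (counts scaled to library size), against 44.6%. The median log2 fold change, soft gel over rigid dish, was 0.16 for the members and 0.05 for all genes tested. The share of members called was thus near that of the whole table. The count depended on single libraries: omitting rigid dish 2 or rigid dish 3 left 1 member called by edgeR, and omitting soft gel 1 or soft gel 2 left 0, with 3 and 4 members at an unadjusted p below 0.05. On omitting those libraries the number of all genes called fell as well, from 4603 to 1963 and 1803.

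**Figure D1:**
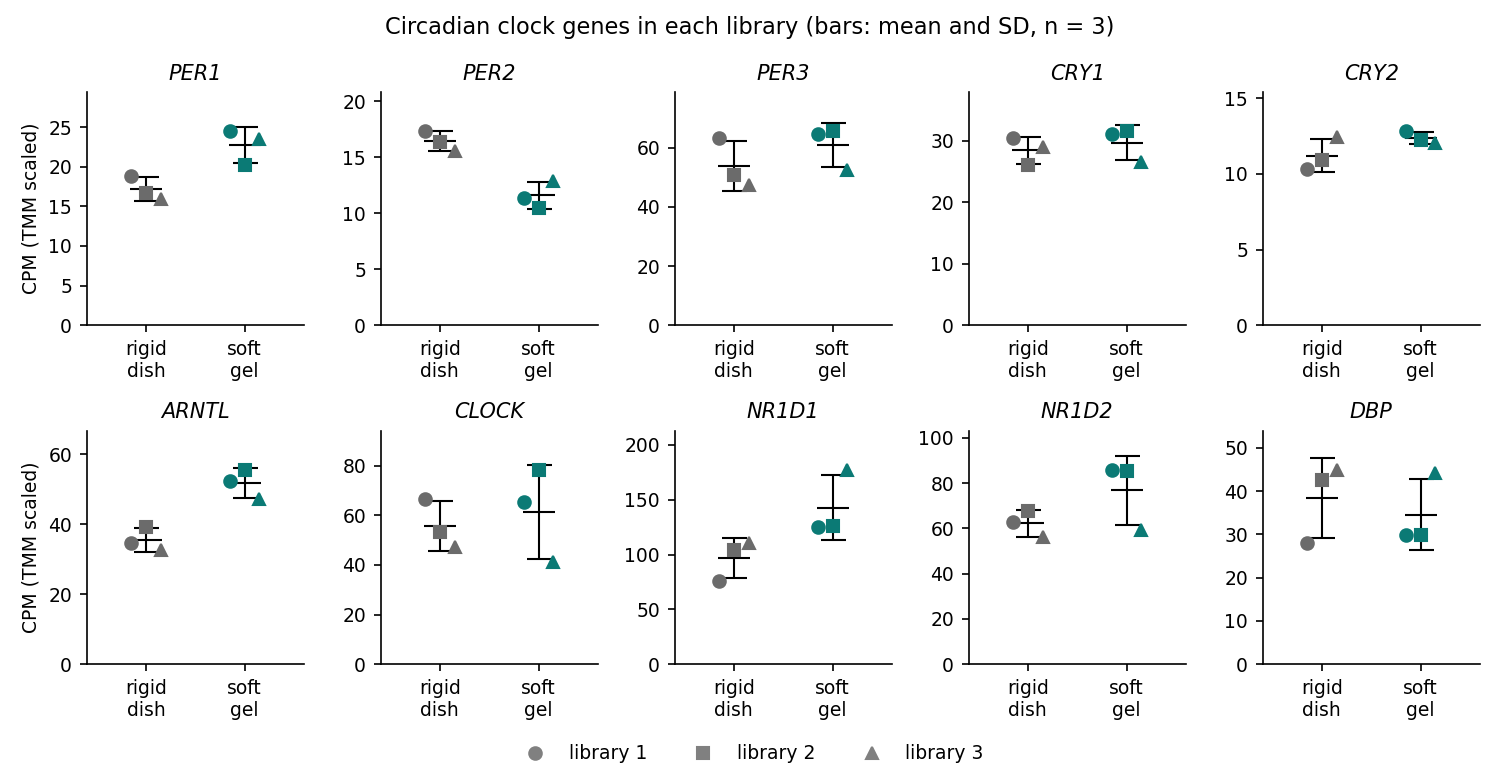
CPM (counts scaled to library size and TMM factors) of the 10 clock genes in each library, rigid dish in grey and soft gel in green, with marker shape giving the library number and bars the mean and SD of 3 libraries. The groups do not overlap for PER1, PER2, ARNTL and NR1D1; in CLOCK and DBP the libraries of a single group lie far apart.

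Promoter sequences were read to show which of the loop's DNA elements lie next to the members' starts. RefSeq windows of 300 bases (250 before the annotated start and 50 after it, build GRCh38.p14) were found for all 10 members, with 15 windows in all. The letters searched on both strands were CACGTG for the E-box, CACGTT for the variant E-box, TTATGTAA or TTACGTAA for the D-box and AGGTCA for the core of the RORE. The E-box was found in 7.3% of the 35116 windows of the whole table, the variant in 5.3%, the D-box in 1.0% and the RORE core in 13.8%. Among the members, an E-box was found in 2 genes (PER1 and NR1D2), the variant in 5 (PER2, CRY1, CRY2, CLOCK and NR1D1), a D-box in 3 (PER2, PER3 and NR1D2) and a RORE core in 3 (PER1, CRY2 and ARNTL). By window these are 2, 5, 3 and 4 of the 15, the counts that the shares of windows stand beside. The DBP window held none of them. The stretches below are those of PER1, PER2 and both REV-ERB genes. They are printed 5′ to 3′ on the gene's strand with the matched letters in capitals.
PER1, chr17:8152518-8152602, minus strand, E-box and RORE core: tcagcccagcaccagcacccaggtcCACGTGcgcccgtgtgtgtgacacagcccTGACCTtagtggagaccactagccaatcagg
PER2, chr2:238288777-238288832, minus strand, variant E-box: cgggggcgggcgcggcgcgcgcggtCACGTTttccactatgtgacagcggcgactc
NR1D1, chr17:40100727-40100782, minus strand, variant E-box: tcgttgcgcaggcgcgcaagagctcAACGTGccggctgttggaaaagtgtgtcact
NR1D2, chr3:23945902-23946046, plus strand, D-box and 2 E-boxes: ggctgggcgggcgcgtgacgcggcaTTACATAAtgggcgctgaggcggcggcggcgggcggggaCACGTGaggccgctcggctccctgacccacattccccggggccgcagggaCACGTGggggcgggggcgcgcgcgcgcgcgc
A match describes letters in a window and does not show that a factor was bound there in these cells.

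The activators of the loop were ARNTL and CLOCK. ARNTL (ENSG00000133794, hg38 chromosome 11, 13276652 to 13387266, plus strand) was at 34.6, 39.2 and 32.6 CPM in the 3 rigid dish libraries and at 52.5, 55.5 and 47.3 CPM in the 3 soft gel libraries. Every soft gel library lay above every rigid dish library. The means were 35.5 ± 3.42 and 51.8 ± 4.17 CPM (SD, n = 3 each), and the log2 fold change was 0.55 (SE 0.12), with an edgeR adjusted p of 0.0125. Leaving out soft gel 1, soft gel 2 or rigid dish 3 ended the call, at an adjusted p of 0.0608, 0.0629 and 0.0647, with the fold change still above 0.

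CLOCK (ENSG00000134852, chromosome 4, 55427903 to 55547138, minus strand) was at 66.7, 53.1 and 47.1 CPM on the rigid dish and at 65.2, 78.3 and 41.0 CPM in soft gel. Both the highest and the lowest of the 6 libraries were soft gel libraries, so the groups overlapped completely. The ratio of highest to lowest library was 1.91 in soft gel and 1.41 on the rigid dish. Its log2 fold change of 0.15 (SE 0.22) did not pass (edgeR adjusted p = 0.651). The sign turned without rigid dish 3 (-0.03) and without soft gel 2 (-0.07).

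The period genes, which encode the slowly accumulating partners of the CRY repressors, did not share a direction. PER2 (ENSG00000132326, chromosome 2, 238244038 to 238290102, minus strand) was at 17.4, 16.4 and 15.6 CPM on the rigid dish and at 11.4, 10.5 and 12.9 CPM in soft gel. All 3 soft gel libraries were below all 3 rigid dish libraries. The means were 16.4 ± 0.888 and 11.6 ± 1.18 CPM (SD, n = 3 each), and the log2 fold change was -0.51 (SE 0.14), with an edgeR adjusted p of 0.0291. Leaving out soft gel 1, soft gel 2 or rigid dish 2 ended the call, at an adjusted p of 0.107, 0.114 and 0.0967.
In the deposited TPM, a level per transcript length scaled to a fixed total, PER2 was at 4.49, 3.38 and 2.96 TPM on the rigid dish and at 2.65, 2.35 and 3.04 TPM in soft gel. On that scale soft gel 3 lay within the rigid dish range, and limma on log2(TPM + 1) did not call the gene (adjusted p = 0.305).

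PER1 (chromosome 17, 8140472 to 8156506, minus strand) had a fold change of the other sign, at 18.9, 16.7 and 15.95 CPM on the rigid dish and 24.5, 20.2 and 23.5 CPM in soft gel. The groups did not overlap in CPM, nor in TPM. The means were 17.2 ± 1.52 and 22.7 ± 2.28 CPM (SD, n = 3 each). The log2 fold change of 0.41 (SE 0.14) missed the threshold with edgeR (adjusted p = 0.0562). The threshold was passed with a filter of 1 CPM in 3 libraries (adjusted p = 0.0476), among protein-coding genes alone (0.0407), with upper quartile scaling (0.0499) and without rigid dish 1 (0.0300).

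PER3 (ENSG00000049246, chromosome 1, 7784320 to 7845177, plus strand) was at 63.2, 50.7 and 47.4 CPM on the rigid dish and at 64.6, 65.7 and 52.5 CPM in soft gel. Rigid dish 1 and soft gel 3 each lay within the other group's range. The log2 fold change was 0.18 (SE 0.15, edgeR adjusted p = 0.373).

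For each of the cryptochromes, the main repressors of the ARNTL and CLOCK pair, all libraries lay close together. CRY1 (ENSG00000008405, chromosome 12, 106991364 to 107093829, minus strand) was at 30.4, 26.02 and 28.99 CPM on the rigid dish and at 31.0, 31.6 and 26.5 CPM in soft gel. CRY2 (ENSG00000121671, chromosome 11, 45847118 to 45883248, plus strand) was at 10.3, 10.9 and 12.4 CPM on the rigid dish and at 12.8, 12.2 and 12.1 CPM in soft gel. The groups overlapped for both genes in CPM. In TPM those of CRY2 did not, at 4.31, 3.82 and 4.19 TPM on the rigid dish and 5.13, 4.41 and 4.80 TPM in soft gel. The log2 fold changes were 0.06 (SE 0.13) for CRY1 and 0.14 (SE 0.15) for CRY2, with edgeR adjusted p of 0.738 and 0.479. For CRY1 the sign was not settled, at -0.001 without a filter on low counts and -0.005 without rigid dish 2.

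The REV-ERB genes encode the repressors of ARNTL. NR1D1 (ENSG00000126368, chromosome 17, 40092787 to 40100725, minus strand) was at 75.9, 104 and 110 CPM on the rigid dish and at 125, 126 and 177 CPM in soft gel. The groups did not overlap, but rigid dish 1 was the lowest of its group and soft gel 3 the highest of its own by a wide margin. The means were 96.8 ± 18.3 and 143 ± 29.8 CPM (SD, n = 3 each), and the log2 fold change was 0.56 (SE 0.18), with an edgeR adjusted p of 0.0456. The call was lost with DESeq2 size factors (adjusted p = 0.0624) and when any of the 6 libraries was left out. The adjusted p was 0.0702, 0.101 and 0.0653 on omitting rigid dish 1, 2 and 3, and 0.0758, 0.0803 and 0.165 on omitting soft gel 1, 2 and 3. The log2 fold change ranged from 0.32 without soft gel 3 to 0.64 without soft gel 1.

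NR1D1 overlaps THRA, the gene of thyroid hormone receptor alpha, on the other strand. They share 263 of the 2772 exon bases of NR1D1 (9.49%), and no source says that reads were counted by strand. THRA was at 74.6 ± 7.48 CPM on the rigid dish and 94.2 ± 6.65 CPM in soft gel (SD, n = 3 each), a log2 fold change of 0.34 (SE 0.12) with an adjusted p of 0.0583 by edgeR. It passed in 6 of the 10 alternatives that used all libraries, at 0.0439 with upper quartile scaling. Reads of the shared bases cannot be told apart, so that part of the NR1D1 count is uncertain.

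NR1D2 (ENSG00000174738, chromosome 3, 23945260 to 23980618, plus strand) was at 62.9, 67.8 and 56.1 CPM on the rigid dish and at 85.9, 85.3 and 59.3 CPM in soft gel. Soft gel 1 and 2 lay above all rigid dish libraries and soft gel 3 lay among them. The log2 fold change of 0.30 (SE 0.16) did not pass (edgeR adjusted p = 0.174), but it did without soft gel 3, at 0.40 (adjusted p = 0.0385). NKIRAS1, a gene on the other strand whose span overlaps that of NR1D2, shared 0 exon bases with it.

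DBP (ENSG00000105516, chromosome 19, 48630030 to 48637438, minus strand), the output gene, was at 27.9, 42.6 and 44.9 CPM on the rigid dish and at 29.8, 29.9 and 44.1 CPM in soft gel. Each group held low libraries near 30 CPM and high ones above 40 CPM, so the groups overlapped almost fully. The log2 fold change was -0.15 (SE 0.21, edgeR adjusted p = 0.609). DBP shares 661 of its 6544 exon bases (10.1%) with SPHK2, a sphingosine kinase gene on the other strand, whose log2 fold change was -0.02 (SE 0.17, adjusted p = 0.923). CLOCK shares 76 exon bases with TMEM165, and this too is on the other strand (log2 fold change -0.09, SE 0.12, adjusted p = 0.613). The other genes on the opposite strand, for PER2, PER3, CRY1 and CLOCK, averaged below 1 CPM in both groups.

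In the authors' deposited table of the comparison, ARNTL (log2 fold change 0.47, adjusted p = 0.00653), NR1D1 (0.48, 0.0337) and PER2 (-0.53, 0.0125) were the 3 of 10 members below 0.05, against 30.9% of the genes tested here. The calls of all 10 members in the authors' deposited table were those made with edgeR.

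**Figure D2:**
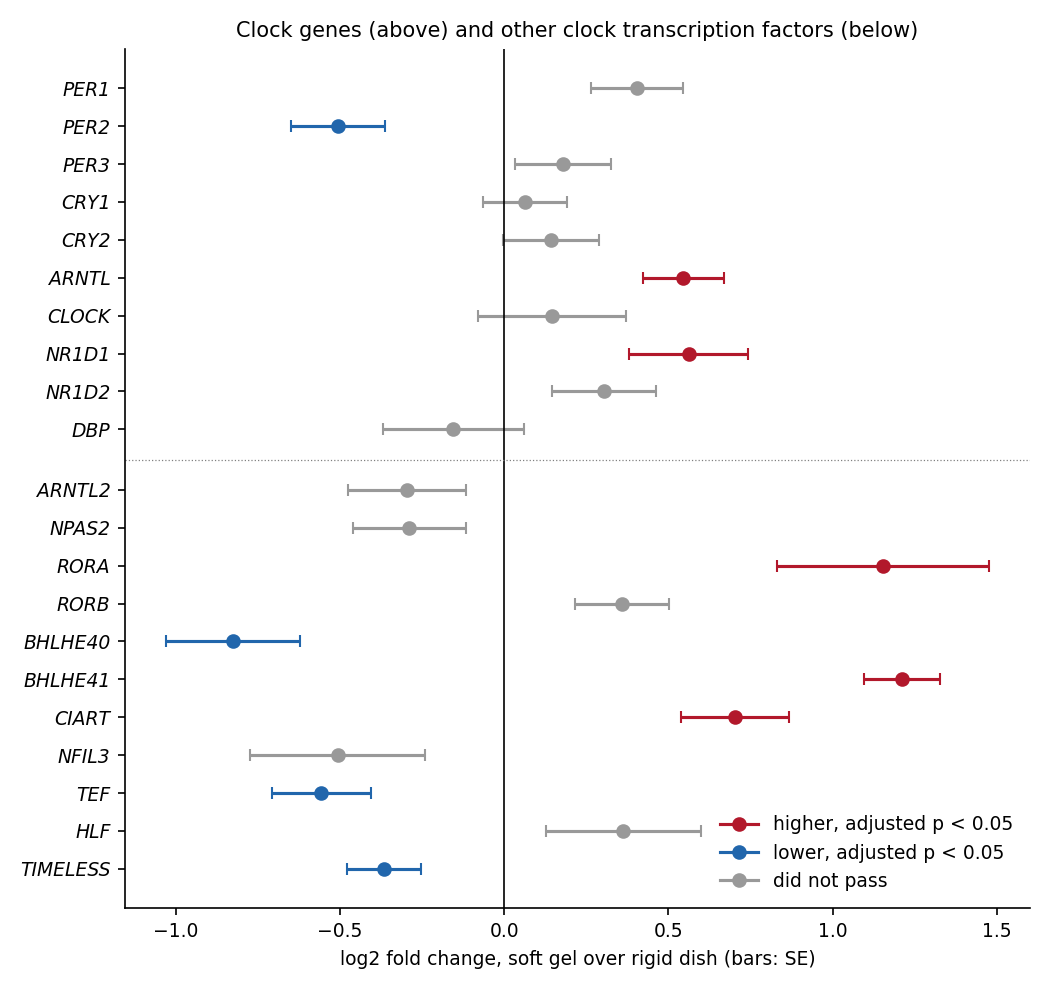
Log2 fold change, soft gel over rigid dish, with its standard error, for the 10 clock genes (above the dotted line) and 11 other clock transcription factors (below), coloured by the edgeR call. ARNTL and NR1D1 lie right of 0 and PER2 left of it among the members, and BHLHE41 has the highest value of the genes shown, at 1.21.

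Levels were compared between genes only per length, in the deposited TPM, with no test. On the rigid dish NR1D1 was highest, at 51.9 ± 4.13 TPM (SD, n = 3), followed by DBP at 40.5 ± 3.60 and ARNTL at 21.8 ± 3.44 TPM. NR1D2 (16.5), CRY1 (14.7), PER3 (13.3), CLOCK (11.9) and PER1 (10.3 TPM) followed in an order in which each gene overlapped its neighbour. CRY2 at 4.11 ± 0.255 and PER2 at 3.61 ± 0.791 TPM were lowest, and overlapped each other. The breaks with no overlap on the rigid dish were those between NR1D1 and DBP, DBP and ARNTL, and PER1 and CRY2.

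In soft gel NR1D1 was again highest, at 81.5 ± 14.4 TPM, with DBP at 35.95 ± 8.71 and ARNTL at 35.2 ± 4.23 TPM (SD, n = 3 each). ARNTL overlapped DBP there, which it did not on the rigid dish. NR1D2 (22.5), PER3 (16.2), CRY1 (16.01) and PER1 (14.5 TPM) each overlapped the next, ending with CLOCK (12.9 TPM), which lay above CRY2 with no overlap. CRY2 at 4.78 ± 0.360 and PER2 at 2.68 ± 0.346 TPM no longer overlapped.

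**Figure D3:**
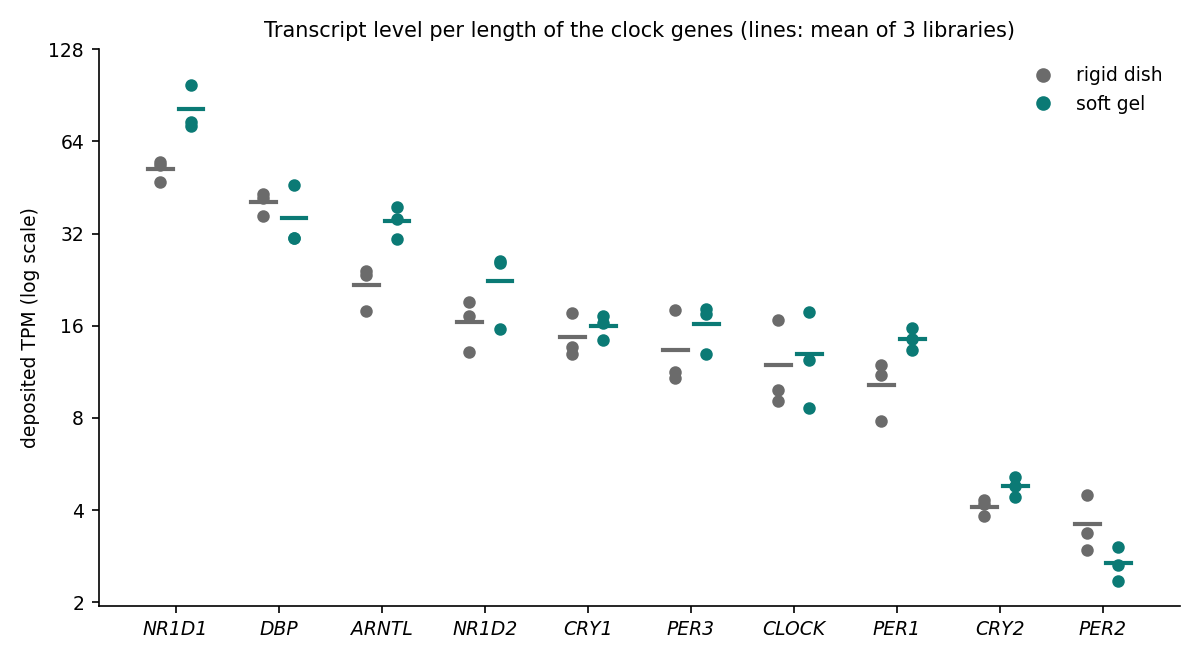
Deposited TPM of the 10 clock genes on a log axis, ordered by the rigid dish mean, with a point per library and a line at the mean of 3 libraries. NR1D1 is highest in both groups (51.9 and 81.5 TPM) and PER2 lowest (3.61 and 2.68 TPM).

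Ratios of 2 clock genes within a library do not depend on the scaling between libraries, and 11 such ratios were taken on TPM. The groups did not overlap in 5 of 11 ratios, beside the 44.6% given above for the CPM of single genes. The 2 measures differ, so that share is not a background for ratios. The ratios share genes, most often ARNTL, so they are not independent of each other or of the calls of single genes. With 3 libraries against 3 the smallest two-sided exact permutation p is 0.1, so no ratio could pass 0.05. Each of the 5 ratios had an exact permutation p of 0.1 and a Benjamini-Hochberg adjusted value of 0.22 over the 11.

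The TPM of PER1 was 2.66, 3.26 and 2.64 times that of PER2 in the rigid dish libraries, and 5.92, 5.66 and 4.77 times in the soft gel libraries. Every soft gel library had the higher ratio, with a mean difference of 0.94 on the log2 scale. PER2 over its activator ARNTL was 0.186, 0.144 and 0.166 in the rigid dish libraries, against 0.0744, 0.0600 and 0.0990 in the soft gel libraries. That ratio was lower in every soft gel library, with a mean log2 difference of -1.11.

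DBP over ARNTL was 1.51, 1.84 and 2.34 for the rigid dish, against 0.867, 0.791 and 1.498 for soft gel, a log2 difference of -0.89. The highest soft gel value, in soft gel 3, lay just under the lowest rigid dish value. Taken on CPM, the ratio was 0.806, 1.09 and 1.38 for the rigid dish, against 0.567, 0.538 and 0.933 for soft gel, so the groups overlapped. The length that relates the TPM of DBP to its count was 1447 to 1584 bases in the rigid dish libraries and 1623 to 1742 bases in the others. NR1D2 over ARNTL was 0.795, 0.735 and 0.735 for the rigid dish, against 0.733, 0.655 and 0.510 for soft gel, a log2 difference of -0.27 with the groups barely apart. ARNTL2, a paralog of ARNTL, was at 0.721, 0.439 and 0.435 of the ARNTL level on the rigid dish and at 0.270, 0.235 and 0.228 in soft gel (log2 difference -1.08).

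The other 6 ratios overlapped between the groups on TPM. On CPM PER3 over ARNTL did not overlap, at 1.83, 1.29 and 1.45 for the rigid dish, against 1.23, 1.18 and 1.11 for soft gel. NR1D1 over ARNTL differed by -0.05 in log2, which is less than the SD of this log2 ratio within either group (0.310 for the rigid dish libraries and 0.416 for the others). The differences were -0.17 for PER1 over ARNTL, -0.39 for PER3 over ARNTL, -0.36 for NPAS2 over CLOCK, -0.09 for CRY1 over CRY2 and 0.22 for NR1D1 over NR1D2. Their exact permutation p ran from 0.2 to 0.9.

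**Figure D4:**
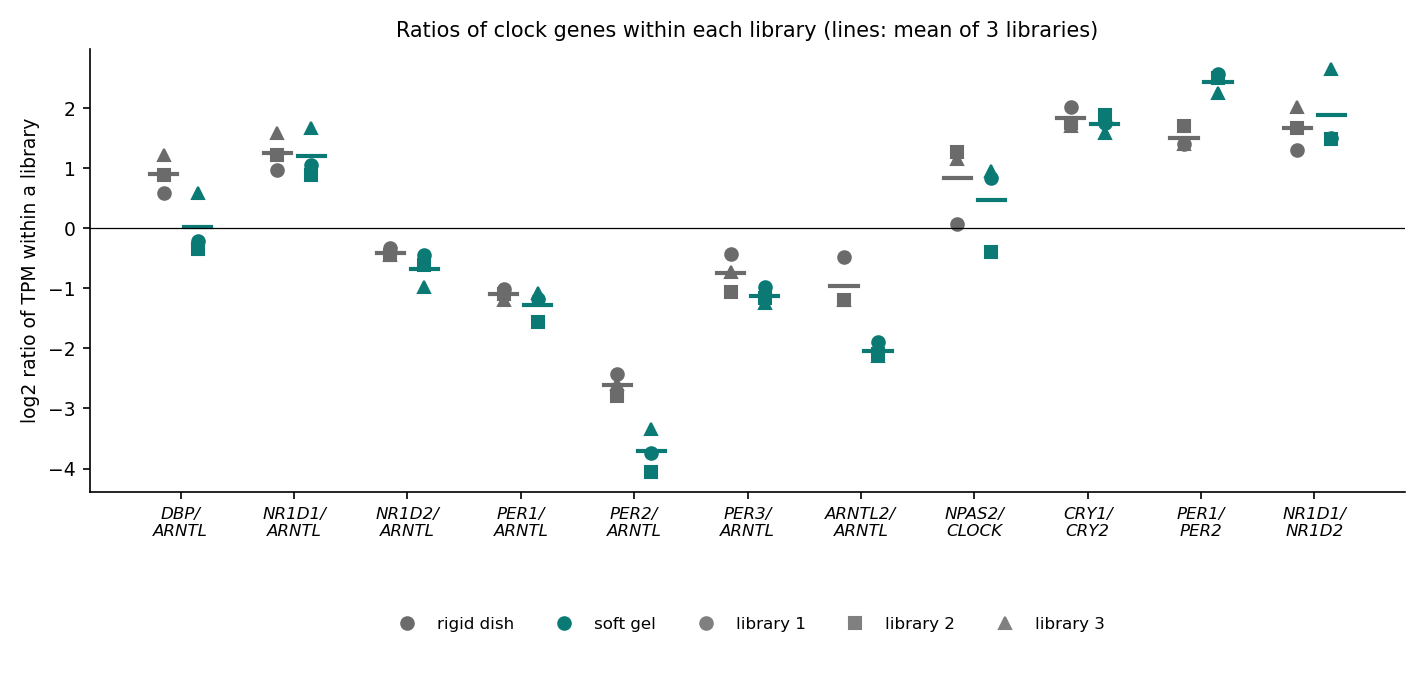
Log2 ratio of the TPM of 2 clock genes within each library, rigid dish in grey and soft gel in green, with marker shape giving the library number and lines the mean of 3 libraries. The groups separate for DBP (on TPM but not on CPM), NR1D2, PER2 and ARNTL2 over ARNTL (soft gel lower) and for PER1 over PER2 (soft gel higher).

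Libraries of the same group differed in several members by as much as the groups did. Soft gel 3 differed from the mean of soft gel 1 and 2 by 0.50 for NR1D1, 0.56 for DBP, -0.53 for NR1D2, -0.31 for PER3 and -0.80 for CLOCK, in log2 CPM. Rigid dish 1 differed from the mean of rigid dish 2 and 3 by -0.50 for NR1D1, -0.65 for DBP, 0.37 for PER3 and 0.41 for CLOCK. NR1D1 and DBP were thus high where CLOCK and PER3 were low, in both comparisons. Of the 11 other clock factors, 5 had the signs of NR1D1 and DBP in both comparisons (TEF, CIART, BHLHE40, NPAS2 and NFIL3) and 3 had those of CLOCK (RORA, ARNTL2 and BHLHE41). RORB, HLF and TIMELESS had neither. Some values were near 0: BHLHE41 was at 0.01 for rigid dish 1 and -0.09 for soft gel 3. For soft gel 3, BHLHE40, NPAS2 and NFIL3 were at 0.08, 0.11 and 0.09. The share of all genes with these signs was not counted.

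Gene length moved with the same libraries. The median over all genes tested of the soft gel 3 difference was 0.09 for genes under 2500 bases, -0.01 for genes of 2500 to 5000 bases and -0.16 for longer genes. For rigid dish 1 the medians were -0.10, 0.03 and 0.14 in the same order, and for soft gel minus rigid dish they were -0.002, 0.06 and 0.18. By the length in the deposited table, DBP (2229 bases) falls in the shortest class and NR1D1 (2630) in the middle one. CLOCK (10304), PER3 (6279), NR1D2 (5231) and PER2 (6380) are in the longest. PER2 had the sign opposite to its class median for soft gel 3 (0.23) and for soft gel minus rigid dish (-0.50). It shared the sign of the median for rigid dish 1 (0.12). The part of gene length in the members' differences was not tested.

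**Figure D5:**
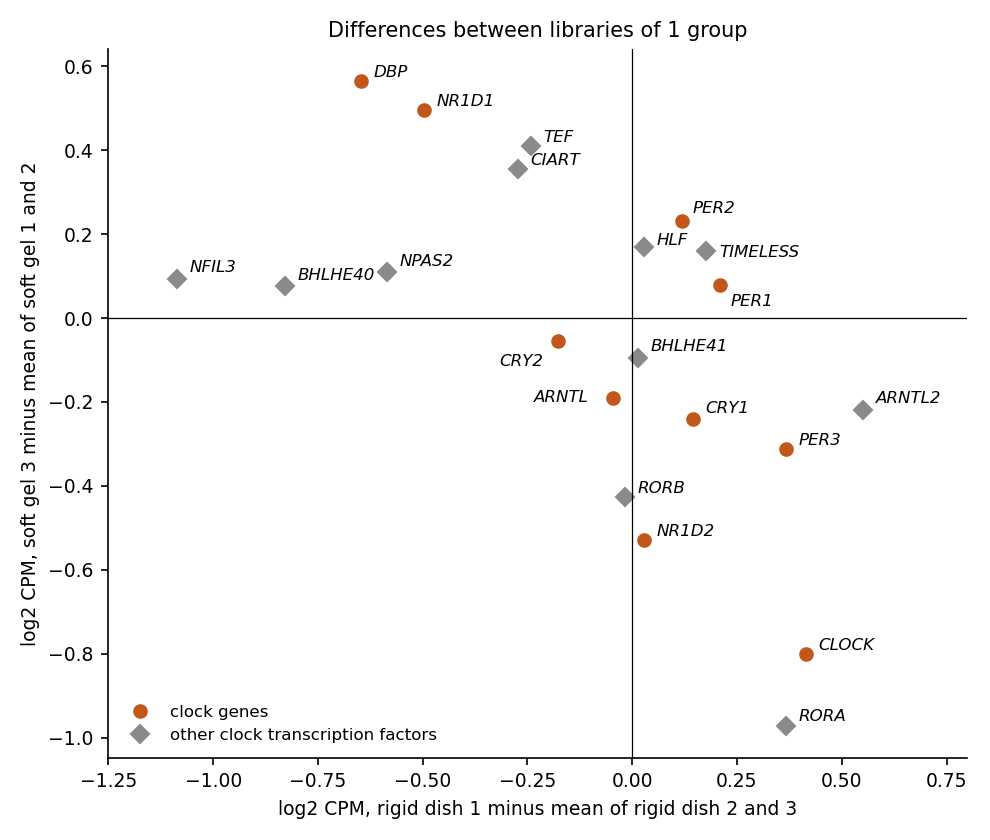
Difference in log2 CPM of soft gel 3 from the mean of soft gel 1 and 2 (vertical axis) against that of rigid dish 1 from the mean of rigid dish 2 and 3 (horizontal axis), for the 10 clock genes (orange circles) and 11 other clock transcription factors (grey diamonds). DBP and NR1D1 lie at the upper left and CLOCK at the lower right; the points share the same 6 libraries and are not independent.

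The profiles of the members over the 6 libraries were most alike for PER3 and CRY1, with a root mean square difference of 0.12 in centred log2 CPM, and least alike for CLOCK and DBP (0.60). Among 9700 protein-coding genes, those nearest to ARNTL were ATAD1 (0.040), UMAD1 (0.042) and ATP6AP2 (0.046). Those nearest to PER1 were PIGX (0.041), ATP1B3 (0.054) and PEX5L (0.054). DBP had no neighbour as close, with C9orf16 at 0.064, DHRS4 at 0.071 and AP003108.2 at 0.074.

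Other transcription factors of the clock were examined as a list of 12, of which 11 were tested. With edgeR 3 were higher and 3 lower, so 6 of 11 were called, against 28.6% of all genes (15.4% higher and 13.2% lower). Their median log2 fold change was -0.29, beside 0.05 for all genes. This list and the lists below were chosen with earlier results of these data known, which may have raised their shares. Omitting rigid dish 2, soft gel 1 or soft gel 2 left 2 genes called, and limma on TPM called BHLHE41 alone. BHLHE40 and BHLHE41 encode DEC1 and DEC2, which compete with ARNTL and CLOCK for E-boxes, and they moved in opposite directions. BHLHE41 was at 26.9, 25.8 and 27.5 CPM on the rigid dish and at 58.3, 68.2 and 59.1 CPM in soft gel. The lowest soft gel library was above the highest rigid dish library by a wide margin, and the log2 fold change was 1.21 (SE 0.12, edgeR adjusted p = 0.000419). This call held in all 16 alternative analyses.
BHLHE41 shares 162 of its 3948 exon bases with SSPN, on the other strand, which was at 0.557 ± 0.146 CPM on the rigid dish and 1.36 CPM in soft gel.

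BHLHE40 was at 69.9, 127.5 and 121 CPM on the rigid dish and at 61.2, 56.5 and 62.0 CPM in soft gel. Rigid dish 1 lay much nearer to the soft gel libraries than to its own group. The log2 fold change was -0.83 (SE 0.20, edgeR adjusted p = 0.0178), and leaving out soft gel 1, soft gel 2 or rigid dish 2 ended the call (0.0619, 0.0781 and 0.0764).

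CIART, a repressor of ARNTL and CLOCK, was at 8.98, 11.03 and 10.7 CPM on the rigid dish and 15.6, 14.9 and 19.5 CPM in soft gel. The groups did not overlap, and the log2 fold change was 0.70 (SE 0.17, edgeR adjusted p = 0.0146), a call lost on log2(TPM + 1) with limma (0.0595). Its window held 3 E-boxes, the most among the members and the other clock factors, and a pair of them lay close together.
CIART, chr1:150282458-150282527, plus strand, 2 of the 3 E-boxes in capitals: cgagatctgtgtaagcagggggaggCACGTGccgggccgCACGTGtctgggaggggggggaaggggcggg
E-boxes were found in 5 of the 11 genes of this list with a window, namely BHLHE40, BHLHE41, CIART, TEF and TIMELESS. By window these are 6 of 15, beside 7.3% of all windows. By edgeR 2 of these genes were called higher and 3 lower, against 28.6% of all genes called in either direction. Whether an E-box went with a difference was not tested.

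The ROR genes encode the activators that act on the same RORE sites as the REV-ERB repressors. RORA was at 2.96, 2.02 and 2.55 CPM on the rigid dish and at 5.52, 7.92 and 3.33 CPM in soft gel. The groups did not overlap, although soft gel 3 was close to the rigid dish range, and the log2 fold change was 1.15 (SE 0.32, edgeR adjusted p = 0.0275). Omitting rigid dish 2 or 3 ended the call (adjusted p = 0.101 and 0.0702), as did omitting soft gel 1 or 2 (0.0799 and 0.124) and limma on log2(TPM + 1), at 0.344. RORB had a log2 fold change of 0.36 (SE 0.14) that did not pass (adjusted p = 0.0871), but did so on omitting soft gel 3 (0.0282).

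Among the D-box factors related to DBP, TEF was lower, at 49.8, 55.3 and 63.0 CPM on the rigid dish and 33.9, 34.7 and 45.6 CPM in soft gel. No soft gel library reached the rigid dish range, and the log2 fold change was -0.56 (SE 0.15, edgeR adjusted p = 0.0245). Omitting rigid dish 2 ended the call (adjusted p = 0.0777), as did omitting soft gel 1 or 2 (0.106 and 0.104). HLF (0.36, SE 0.24, adjusted p = 0.267) and the D-box repressor gene NFIL3 (-0.51, SE 0.27, adjusted p = 0.175) did not pass. NFIL3 was at 9.73 CPM in rigid dish 1 and at 21.8 and 19.8 CPM in the other rigid dish libraries, and passed without rigid dish 1 (adjusted p = 0.00293) and without a filter on low counts (0.0171).

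TIMELESS, a gene of replication fork protection named for its fly relative, was at 108 ± 8.19 CPM on the rigid dish and 83.5 ± 5.75 CPM in soft gel (SD, n = 3 each). Its log2 fold change was -0.37 (SE 0.11, edgeR adjusted p = 0.0372). The call was lost with upper quartile scaling (adjusted p = 0.0608) and on omitting rigid dish 1 or 2 (0.0519 and 0.0866) or soft gel 1 or 2 (0.128 and 0.137). The paralogs of the activators did not pass: ARNTL2 had a log2 fold change of -0.30 (SE 0.18, adjusted p = 0.234) and NPAS2 of -0.29 (SE 0.17, adjusted p = 0.225). NPAS2 passed without rigid dish 1 (adjusted p = 0.0166).

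Kinases, phosphatases and ubiquitin enzymes linked to clock proteins, not to PER and CRY alone, were examined as a list of 22. Of these 20 were tested, with 4 higher and 6 lower by edgeR and a median log2 fold change of -0.15. The calls were 10 of 20, against 28.6% of all genes, in a list chosen with earlier results of these data known. CSNK1E, a casein kinase that phosphorylates PER proteins, was lower (log2 fold change -0.58, SE 0.11, adjusted p = 0.00675), and the related CSNK1D did not pass (-0.29, adjusted p = 0.0541). Of the catalytic subunits of protein phosphatase 1, PPP1CB was higher (0.72, SE 0.13, adjusted p = 0.00539) and PPP1CA lower (-0.60, SE 0.16, adjusted p = 0.0265). FBXW7 (0.66, adjusted p = 0.0190), a substrate receptor of a ubiquitin ligase, and PRKAA2 (0.59, adjusted p = 0.0478), a catalytic subunit of AMP-activated kinase, were higher. SIAH2 (-0.67, adjusted p = 0.00953), a ubiquitin ligase, was lower. Without rigid dish 2 or soft gel 1 the calls of FBXW7, PRKAA2, SIAH2 and PPP1CA were lost. Those of FBXW7 and PRKAA2 were also lost without rigid dish 3 or soft gel 2, and that of PPP1CA without soft gel 2. The adjusted p in these cases was 0.0501 to 0.190. PRKAA2 was also not called with DESeq2 size factors (0.0534) or limma-voom (0.0537). On log2(TPM + 1) with limma FBXW7 (0.206), PRKAA2 (0.183) and SIAH2 (0.0620) were not called. Omitting rigid dish 2 or soft gel 1 left 2 genes called, omitting rigid dish 3 left 5 and omitting soft gel 2 left 3.

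Of 20 cofactors of the loop, all tested, 1 was higher and 4 were lower by edgeR, with a median log2 fold change of -0.20. The calls were 5 of 20, near the 28.6% of all genes. The histone acetyltransferase gene KAT2B was higher (0.92, SE 0.19, adjusted p = 0.00840). The chromatin genes EZH2 (-0.75, SE 0.14, adjusted p = 0.00587) and WDR5 (-0.71, SE 0.10, adjusted p = 0.00208) were lower. NCOR1, the corepressor that REV-ERB proteins recruit, was lower (-0.45, SE 0.12, adjusted p = 0.0253), and its call was lost without rigid dish 2 (0.0964) or soft gel 1 (0.0878). On log2(TPM + 1) with limma EZH2 (adjusted p = 0.0753) and NCOR1 (0.115) were not called, while WDR5 was called in all 16 alternatives. The number called in this list was 3 without rigid dish 2 or soft gel 1, 8 without rigid dish 1 and 9 without soft gel 3.

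Of 17 genes known as clock outputs, all tested, 5 were higher and 1 was lower by edgeR, with a median of 0.24. The calls were 6 of 17, beside 28.6% of all genes. They were led by TFRC, the transferrin receptor gene (log2 fold change 0.94, SE 0.12, adjusted p = 0.00132), KLF10, a zinc finger factor (0.57, SE 0.15, adjusted p = 0.0205), and WEE1, a kinase that delays mitosis (0.56, SE 0.12, adjusted p = 0.00934). PPARD, a nuclear receptor gene, was lower (-0.61, SE 0.11, adjusted p = 0.00549), but not on log2(TPM + 1) with limma (-0.26, adjusted p = 0.577). The call of KLF10 was lost without rigid dish 2, rigid dish 3, soft gel 1 or soft gel 3 (0.0572 to 0.102), and that of WEE1 without rigid dish 3 (0.0535). KLF10 was also not called on log2(TPM + 1) with limma (0.0763). The list's count was 3 without rigid dish 2 or rigid dish 3 and 11 without rigid dish 1.

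Signals such as glucocorticoids and cAMP can reset the clock by inducing PER1. A list of 16 genes of such clock input held mediators as well as responsive genes, so it does not measure a response. Of these 16 genes 15 were tested, with 2 higher and 2 lower by edgeR and a median of 0.01. These 4 of 15 are near the 28.6% of all genes. DUSP1, a phosphatase of MAP kinases, was higher (log2 fold change 2.37, SE 0.21, adjusted p = 0.000336), as was the kinase gene SGK1 (1.10, SE 0.15, adjusted p = 0.00154). FKBP5, which is induced by glucocorticoids in many cells, was lower (-0.64, SE 0.20, adjusted p = 0.0375), and so was SRF, the serum response factor gene (-0.46, SE 0.14, adjusted p = 0.0342). The calls of FKBP5 and SRF were lost on omitting soft gel 1, soft gel 2 or rigid dish 2, that of FKBP5 also without rigid dish 1 and that of SRF also without rigid dish 3 (0.0629 to 0.139). On log2(TPM + 1) with limma neither was called (0.239 and 0.128), and FKBP5 was not called with upper quartile factors (0.0502). Omitting rigid dish 2, soft gel 1 or soft gel 2 left 2 genes called in the list.

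The libraries held 20911363 to 25901499 counts. Of the 11 glioma and astroglial markers tested, 5 were called by edgeR, against 28.6% of all genes. The alternative analyses were not read for these markers. VIM (-0.48, adjusted p = 0.0172), NES (-0.56, 0.0211) and EGFR (-0.60, 0.00574) were lower in log2 fold change, and CD44 (0.33, 0.0371) and SOX2 (0.59, 0.00509) were higher. The 12 glioma and astroglial markers summed to 6272 to 7019 CPM on the rigid dish and 6006 to 6440 CPM in soft gel, mostly from VIM (3657 and 2618 CPM on average) and CD44 (2595 and 3257 CPM). OLIG2 was at 0 in all 6 libraries, GFAP averaged 0.645 and 0.882 CPM, and S100B, CHI3L1, PDGFRA, AQP4 and SLC1A3 each averaged below 5 CPM. The part of these marker differences in the members' values was not tested. Lists of 6 markers each for neurons (12.8 to 17.8 CPM), myeloid and lymphoid cells (0.732 to 2.10 CPM) and endothelium (2.76 to 4.79 CPM) were low in all libraries. The oligodendrocyte list summed to 99.8 to 124 CPM through MBP, with the other 5 markers below 1 CPM throughout.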

How the data were processed

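The members and the gene lists were chosen with earlier results of these data known. The authors deposited estimated counts and TPM per gene; decimals were present in 11.3% to 13.0% of genes per library, and counts were rounded to whole numbers. The authors' deposited comparison gave a fold ratio, a log2 fold change and p-values. HISAT2, HTSeq and hg38 are named in the submitters' processing notes, without versions; the quantifier and strand setting are not given in the sources used here. Libraries were made from total RNA with a TruSeq kit, per the labels' protocols. Genes were filtered with filterByExpr (minimum count 10), scaled by TMM and tested with edgeR 4.0.16 (R 4.3.3, limma 3.58.1), with each SE taken from the test statistic. Gene positions came from GENCODE 29, which held 99.5% of the identifiers.

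Named genes were the 10 members, the other clock factors, up to 3 higher and 3 lower called genes per further list (5 CPM or more), the 3 nearest profiles (10 CPM or more) of PER1, DBP and ARNTL, and genes overlapping a member on the other strand. CSNK1D, SSPN and the markers VIM, NES, CD44, SOX2, EGFR, GFAP, OLIG2, S100B, CHI3L1, PDGFRA, AQP4, SLC1A3 and MBP were named after their values were seen. Alternatives were DESeq2 (1.42.0) size factors and Wald test, upper quartile factors, other filters, limma-voom, limma on TPM, protein-coding genes, a replicate block and leaving out each library. The pipeline was tested on simulated data. A few listed genes are not reported individually.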

Additional observations from a re-analysis of the deposited data

How the results depend on the processing

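Across the 10 alternatives that used all libraries, 2 to 4 of the 10 clock genes were called, and 0 to 3 when a library was left out. Every alternative gave ARNTL, NR1D1 and PER1 a positive and PER2 a negative log2 fold change. Over the 16 alternatives the adjusted p was 0.00215 to 0.0647 for ARNTL, 0.00275 to 0.165 for NR1D1, 0.00911 to 0.328 for PER2 and 0.0280 to 0.236 for PER1. The ratios whose groups did not overlap numbered 5 or 6. The sign turned for CRY1 without a low-count filter (-0.0014) and without rigid dish 2 (-0.0051), and for CLOCK without rigid dish 3 (-0.030) or soft gel 2 (-0.068), within ranges of -0.0051 to 0.11 and -0.068 to 0.31 over the libraries left out. SPHK2 turned positive with limma on log2(TPM + 0.1) (0.13) and log2(TPM + 1) (0.12), among protein-coding genes (0.012), with upper quartile factors (0.012) and without rigid dish 3 or soft gel 2 (range over the libraries left out -0.18 to 0.070), and TMEM165 on the same TPM scales (0.039 and 0.038). The cause of these changes was not tested. Limma on log2(TPM + 0.1) and log2(TPM + 1) called 2287 and 2313 of all genes in place of 4603. On both scales it called 1 of the other clock factors, 4 of the listed enzymes, 2 cofactors, 3 output genes and 2 input genes. The cofactors called numbered 9 with the DESeq2 Wald test and 8 with no filter. Leaving out a library gave 1803 to 6164 genes called, with 0 to 3 members, 2 to 7 other clock factors, 2 to 12 enzymes, 3 to 9 cofactors, 3 to 11 output genes and 2 to 4 input genes. The split of all genes, 2480 higher and 2123 lower, was 2268 and 2447 with DESeq2 size factors and 2716 and 1885 with upper quartile factors.

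Libraries with the same number correlated at 0.217, 0.00912 and 0.307 in their deviations from the group means. Rigid dish 2 correlated best with soft gel 3, at 0.0424 against 0.00912 with soft gel 2. The other rigid dish libraries correlated best with the soft gel library of the same number. Whether the libraries were paired by number is not given in the labels and was not tested. With the replicate number as a block, 6442 of all genes, 4 members (PER1 added) and 11 cofactors were called, as were RORB (adjusted p = 0.0291) and THRA (0.0186).

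Depth was 20911363 counts or more, so 3 counts, taken as an approximate upper limit where a count is 0, equal 0.116 to 0.143 CPM. This covers counting error only. No member lay near that limit, and the spread between libraries sets the precision.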

Other observations

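HLF, a D-box factor related to DBP, had unlike values on the 2 deposited scales. The rigid dish libraries held 123, 130 and 81 counts of it and the soft gel libraries 112, 169 and 135. In TPM the rigid dish libraries were at 3.22, 2.72 and 1.41 and the soft gel libraries at 1.71, 3.04 and 53.5. The length that relates the TPM to the count was 200 bases in soft gel 3, against up to 4876 bases in another library. RORA showed the same kind of gap to a lesser degree, with implied lengths of 1489 to 4988 bases, and was 1.95 ± 0.669 TPM on the rigid dish and 2.74 ± 0.703 TPM in soft gel (SD, n = 3 each), where the groups overlapped. Among the members the implied length of NR1D1 ranged from 3023 to 3058 bases and that of CLOCK from 7025 to 9534 bases. The cause was not tested.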
